A study of Rattus norvegicus with 2 samples.

Results

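The TGF-beta ligands Tgfb1, Tgfb2 and Tgfb3, the activin subunit gene Inhba, the receptors Tgfbr1 and Tgfbr2, the signal carrier Smad3 and the feedback genes Smad7 and Skil were followed in H9c2 cells, a line derived from embryonic rat heart. The members are the rows of the expression table whose gene name is one of these 9 symbols, with values added up per symbol. Of the 9, 8 had a row among the 16783 gene symbols of the table. No row used here carries the name Skil, so it was not analysed here by name.

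The series holds 2 RNA libraries, 1 from cells given an empty vector and 1 from cells given a plasmid for the beta4 subunit of voltage-gated calcium channels, Cacnb4. Both came from the same line, labelled as strain BD1X and tissue heart/myocardium, and neither a time after transfection nor a number of cultures is given. The design asks how the beta4 subunit alters expression as a whole. With 1 library per group there is no replicate error, so the differences below have no test between conditions and are given by size only. Cacnb4 itself was listed at 4.37 FPKM with the empty vector and 6266 FPKM with its plasmid. FPKM is a transcript level scaled to transcript length and to mapped reads, and the table's header does not name its unit. The libraries held 13569897 (empty vector) and 14939784 (Cacnb4) mappable reads. The table gives no read counts per gene, so the depth behind a single gene's value is unknown.

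TGF-beta ligands are made as precursors and kept in a latent complex until they are released. Binding proteins of the matrix anchor that complex. A free ligand brings together the type II receptor and the type I receptor, which phosphorylates Smad2 and Smad3. These move to the nucleus with Smad4 and switch on genes of matrix, adhesion and growth arrest, and also Smad7 and Skil, which damp the signal. Activin A, a dimer of the Inhba product, uses its own receptors and the same Smads. In heart and muscle the pathway is known for its part in fibrosis and for holding back muscle differentiation.

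The ligands were the members that differed most between the libraries, so the stretch before their start sites is shown. Each sequence is the 250 bases upstream of the gene's annotated start in RefSeq on build GRCr8, written from 5′ to 3′ on the gene's strand. Coordinates on GRCr8 are chr1:90324062-90324311 on the plus strand for Tgfb1, chr13:100792686-100792935 on the minus strand for Tgfb2, chr6:111456947-111457196 on the minus strand for Tgfb3 and chr17:53804509-53804758 on the minus strand for Inhba. Capitals mark matches to the motifs named after the sequences.
Tgfb1: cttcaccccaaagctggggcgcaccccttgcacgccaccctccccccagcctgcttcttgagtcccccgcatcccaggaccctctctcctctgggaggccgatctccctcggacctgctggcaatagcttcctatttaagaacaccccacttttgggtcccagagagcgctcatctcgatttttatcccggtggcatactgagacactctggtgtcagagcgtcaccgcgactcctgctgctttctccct
Tgfb2: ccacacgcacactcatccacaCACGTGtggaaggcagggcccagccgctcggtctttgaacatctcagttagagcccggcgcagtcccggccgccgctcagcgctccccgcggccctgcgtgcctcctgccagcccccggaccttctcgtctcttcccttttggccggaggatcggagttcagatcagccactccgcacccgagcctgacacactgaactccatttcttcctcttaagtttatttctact
Tgfb3: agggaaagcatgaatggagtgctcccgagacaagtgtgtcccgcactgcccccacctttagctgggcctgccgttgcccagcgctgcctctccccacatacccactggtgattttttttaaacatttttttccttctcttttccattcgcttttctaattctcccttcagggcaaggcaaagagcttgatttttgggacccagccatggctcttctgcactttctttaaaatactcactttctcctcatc
Inhba: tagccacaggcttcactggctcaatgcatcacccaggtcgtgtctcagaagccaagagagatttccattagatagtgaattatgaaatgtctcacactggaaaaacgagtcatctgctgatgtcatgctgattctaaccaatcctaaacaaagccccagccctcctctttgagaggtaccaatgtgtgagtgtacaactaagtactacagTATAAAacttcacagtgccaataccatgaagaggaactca

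Upstream stretches of all 9 members were matched in RefSeq and searched on both strands for 8 motifs. The Inhba stretch held a TATA box (TATAAA) that begins 40 bases before the start, which 12.9% of all 33469 upstream stretches of this length hold. The Tgfb2 stretch held an E-box (CACGTG) that begins 229 bases before the start, found in 5.59% of all stretches. The Tgfb1 and Tgfb3 stretches held none of the 8 motifs. The cAMP response element TGACGTCA stood in the Skil stretch alone among the members, 53 bases before the start, against 1.59% of all stretches. The GC box GGGCGG, a site type of Sp1, stood in 5 of 9 members (Tgfbr1, Tgfbr2, Smad3, Smad7 and Skil), against 30.5% of all. The short Smad motif CAGAC stood in 1 member, Skil, against 42.9% of all stretches, and the Smad palindrome GTCTAGAC in 0, against 0.173%. The interferon response motif GAAANNGAA (8.12% of all) and the AP-1 motif TGANTCA (6.34% of all) stood in 0 members. G and C made up 60.0% of the Tgfb1 stretch, 61.6% of that of Tgfb2, 48.8% of that of Tgfb3 and 43.6% of that of Inhba, with a median of 51.2% over all stretches. A match describes letters in this window and does not show a bound site.

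With the Cacnb4 plasmid, Tgfb1 was lower while Tgfb2, Tgfb3 and Inhba were higher, and the order of the ligands by level changed. Tgfb1, the form most widely made by cells of many tissues, was at 139 FPKM with the empty vector and 108 FPKM with Cacnb4, which is 1.29 times lower. Tgfb2, the form tied to heart valve and outflow tract formation in mice, was at 96.1 FPKM with the empty vector and 133 FPKM with Cacnb4, 1.38 times higher. Tgfb3, known in mice for palate closure, was at 89.2 and 117 FPKM in the same order, 1.31 times higher. On the scale log2((FPKM Cacnb4 + 1)/(FPKM empty vector + 1)), called the log2 ratio here, these differences were -0.36, 0.46 and 0.38. The added 1 FPKM shrinks the difference of low genes.

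**Figure D1:**
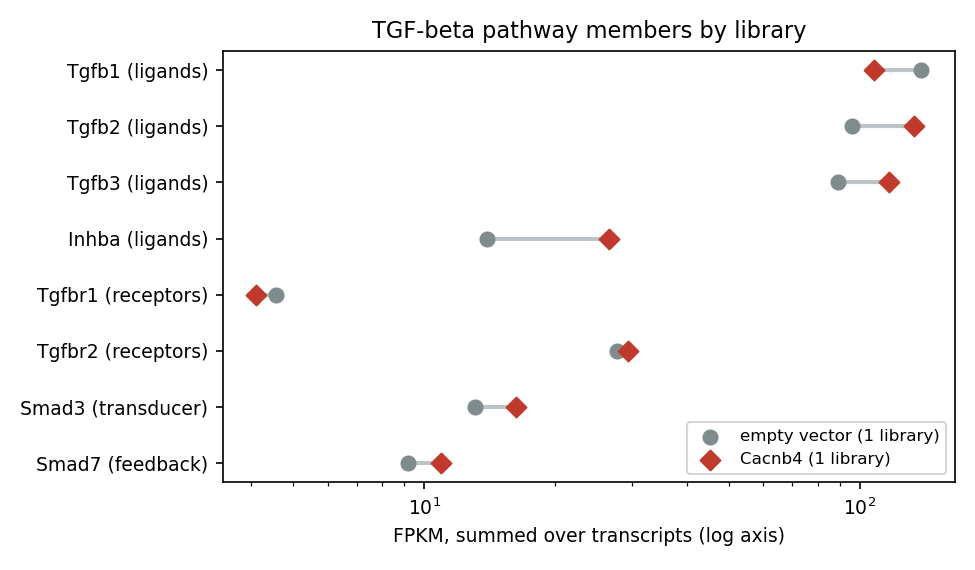
Level of each measured member in FPKM (log axis), with a grey circle for the empty vector library and a red diamond for the Cacnb4 library, 1 library each. Tgfb1 and Tgfbr1 have the diamond on the left of the circle, and the gap is widest for Inhba, at 14.0 and 26.6 FPKM.

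By level the ligands ran Tgfb1, Tgfb2, Tgfb3 with the empty vector and Tgfb2, Tgfb3, Tgfb1 with Cacnb4. Tgfb1 stood 1.44 times above Tgfb2 with the empty vector, whereas Tgfb2 stood 1.23 times above Tgfb1 with Cacnb4. Tgfb1 made up 42.8% of the 3 ligands' summed FPKM with the empty vector and 30.1% with Cacnb4. The share of Tgfb2 was 29.7% and 37.2%, and that of Tgfb3 was 27.5% and 32.6%, in the same order. The sum itself was 324 FPKM with the empty vector and 358 FPKM with Cacnb4, a ratio of 1.10. No spread between cultures is known for any of these levels, so neighbours in either order cannot be said to differ beyond it.

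**Figure D2:**
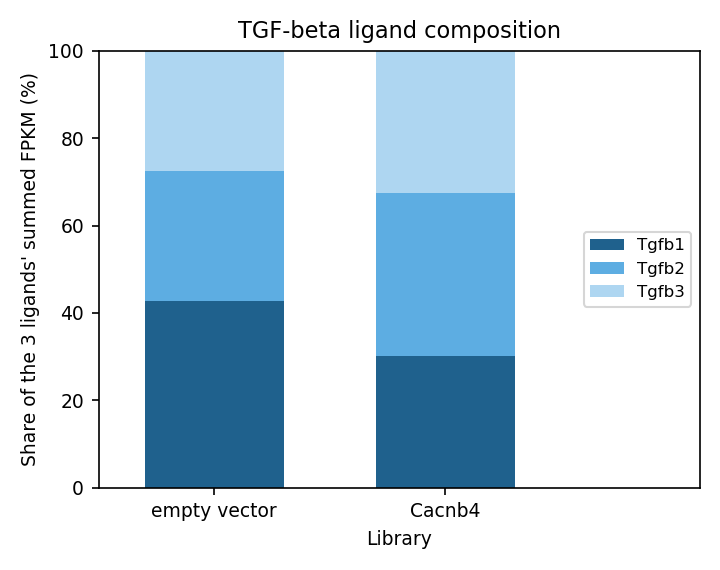
Share of Tgfb1, Tgfb2 and Tgfb3 in the summed FPKM of these ligands, in percent, for the empty vector and the Cacnb4 library (1 each). The dark segment of Tgfb1 is 42.8% on the left and 30.1% on the right.

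Inhba encodes the beta A chain that pairs with itself to make activin A. It was at 14.0 FPKM with the empty vector and 26.6 FPKM with Cacnb4, 1.91 times higher, with a log2 ratio of 0.88. This was the highest log2 ratio among the measured members, at percentile 97.7 of all 9539 measured genes, where measured means 1 FPKM or more in at least 1 library. The values for Tgfb2 and Tgfb3 stood at percentiles 94.2 and 92.4, and that for Tgfb1 at percentile 8.14.

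The difference of Inhba lay mainly in 1 of its 2 listed transcripts. The first (TCONS_00013197) was at 10.4 FPKM with the empty vector and 13.1 FPKM with Cacnb4. The second (TCONS_00013198) was at 3.52 and 13.5 FPKM, 3.82 times higher with Cacnb4, and its share of the gene's sum was 25.2% and 50.6%. The table lists both with the same span, chromosome 17 from 57243487 to 57257562 on build rn4, so it does not show how they differ in structure. The first transcript alone gave a log2 ratio of 0.31 in place of 0.88. For the second transcript the authors' deposited table gives a p-value of 1, and the first had one of 0.407 there. A p-value of exactly 1 stands in the authors' deposited table on 32.4% of transcripts at loci with more than 1 transcript and on 1.45% of those at loci with a single one.

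**Figure D3:**
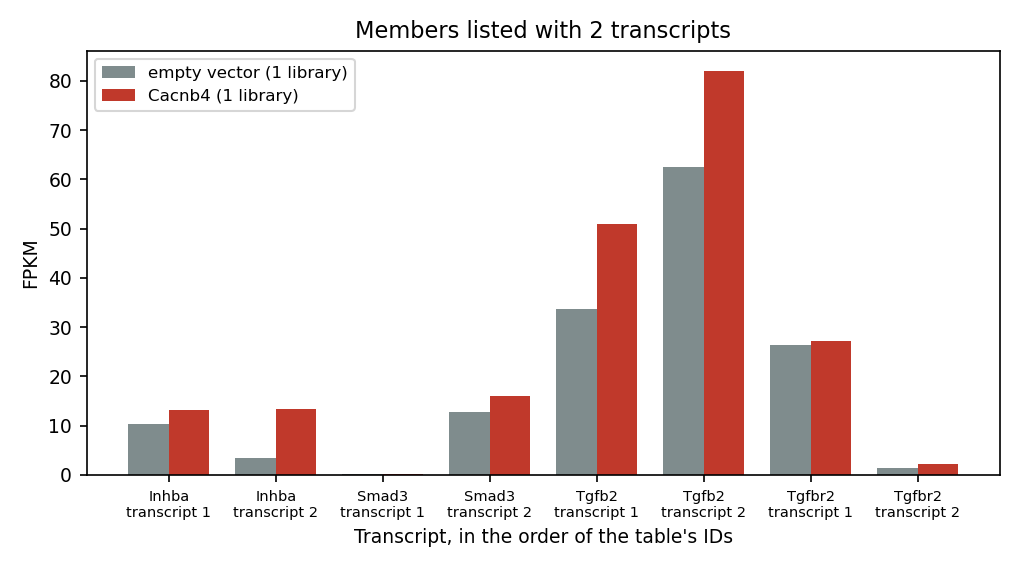
FPKM of each listed transcript of the 4 members with 2 transcripts, grey for the empty vector and red for the Cacnb4 library, 1 library each. The second Inhba transcript stands at 3.52 and 13.5 FPKM, while both transcripts of Tgfb2 are higher with Cacnb4.

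Both listed transcripts of Tgfb2 were higher with Cacnb4. The first (TCONS_00009291) was at 33.6 and 51.0 FPKM with the empty vector and Cacnb4, 1.52 times higher. The second (TCONS_00009292) was at 62.5 and 82.0 FPKM, 1.31 times higher, and remained the larger one in both libraries, with 65.0% and 61.7% of the sum. The locus runs on rn4 chromosome 13 from 102717301 to 102819775. Tgfb1 (rn4 chromosome 1, 80894704 to 80911020) and Tgfb3 (rn4 chromosome 6, 110173438 to 110195215) each had a single transcript. Whether positions in the table begin at 0 or at 1 is not stated.

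The receptor genes differed less between the libraries than the ligands did. Tgfbr2, the type II receptor that binds the ligand first, was at 27.7 FPKM with the empty vector and 29.4 FPKM with Cacnb4, a log2 ratio of 0.08. Its smaller transcript (TCONS_00029381) was at 1.35 and 2.25 FPKM and held 4.87% and 7.66% of the sum. Tgfbr1, the type I receptor kinase also called ALK5, was the lowest of the measured members in both libraries, at 4.57 and 4.11 FPKM, with a log2 ratio of -0.12. Tgfbr2 thus stood 6.06 times above Tgfbr1 with the empty vector and 7.15 times above it with Cacnb4. Tgfbr1 lies on rn4 chromosome 5 from 63976867 to 64034058 and Tgfbr2 on rn4 chromosome 8 from 120591052 to 120680453.

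Smad3 and Smad7 were both higher with Cacnb4, by less than Tgfb2 or Tgfb3. Smad3, which carries the signal of TGF-beta and activin receptors into the nucleus, was at 13.1 FPKM with the empty vector and 16.2 FPKM with Cacnb4, 1.24 times higher, with a log2 ratio of 0.29. One transcript (TCONS_00029198) held 98.3% and 98.9% of it. The table gives Smad3 the same span as Aagab, rn4 chromosome 8 from 67777256 to 67952074, which makes both values uncertain where their transcripts overlap. The summed Aagab level was 29.1 and 27.0 FPKM. Smad7, which blocks the type I receptor and is itself a target of the pathway, was at 9.19 and 10.9 FPKM, 1.19 times higher, with a log2 ratio of 0.22. It lies on rn4 chromosome 18 from 72294802 to 72323354. The ratio of Smad3 to Smad7 was 1.42 with the empty vector and 1.49 with Cacnb4. Smad2, the close relative of Smad3, was at 16.2 FPKM in both libraries, so that Smad3 stood at 0.805 times its level with the empty vector and beside it, at 16.2 FPKM, with Cacnb4.

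In all, 6 of the 8 measured members were above 0 on the log2 ratio and 2 below, while 44.6% of all measured genes were above 0. The members' median was 0.26, and that of all measured genes was -0.03. None of the 8 members was 2-fold or more higher and none 2-fold or more lower, where 1.94% of all measured genes were higher and 1.08% lower by that rule. The middle 90% of all measured genes ran from -0.44 to 0.52, and Inhba alone among the members lay outside that range. The first Inhba transcript alone, at 0.31, lay inside it. The authors' deposited table marks 0 of the 12 member transcripts, against 0.696% of all its transcripts. Only 9 of the 12 have a p-value below 1 there. The second transcripts of Inhba and Tgfb2 and the smaller one of Tgfbr2 are not among these 9. The lowest p-value it gives a member transcript is 0.233, for Tgfb3, and the next is 0.244, for Tgfb1. The p-values in the authors' deposited table come from reads of a single library on each side, so they say nothing of the spread between cultures.

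**Figure D4:**
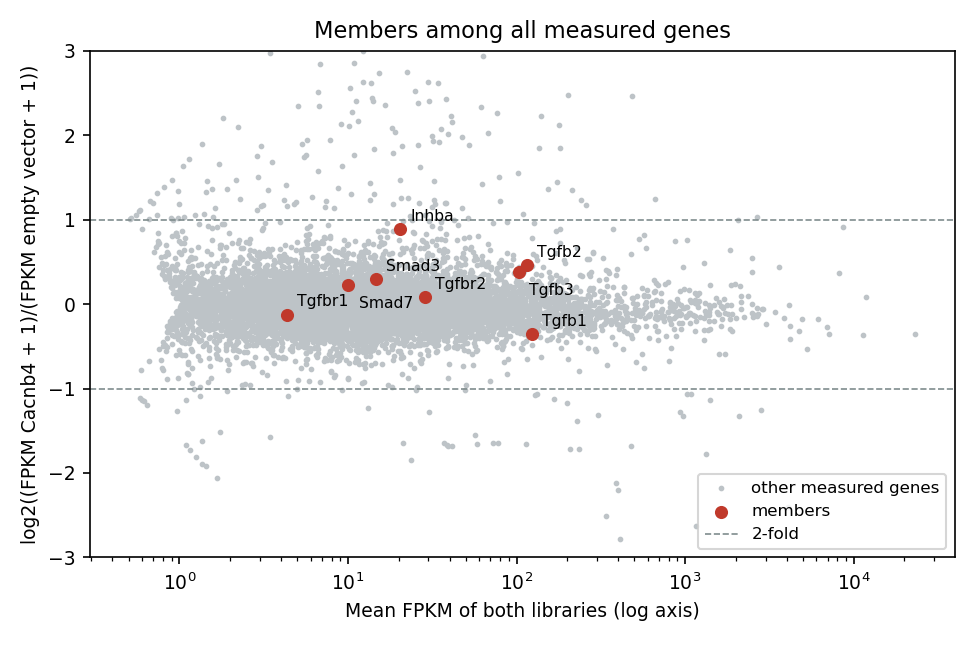
Log2 ratio against mean FPKM of both libraries (log axis) for all measured genes (grey) and the members (red), with dashed lines at 2-fold. Inhba at 0.88 lies nearest to the upper line and Tgfb1 at -0.36 is the lowest member. The axis stops at 3 in either direction, which leaves 86 genes off the plot.

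The measured genes of the list for latency and activation of the ligands were mostly a little higher with Cacnb4. Of 8 measured genes of latency and activation, 7 were above 0, 0 were 2-fold different, and the median log2 ratio was 0.24. Beside this and the lists that follow, 44.6% of all measured genes were above 0. By the 2-fold rule 1.94% of all measured genes were higher and 1.08% lower. Fbn1, the fibrillin of the microfibrils on which latent complexes are anchored, was at 23.1 FPKM with the empty vector and 39.5 FPKM with Cacnb4. Bmp1, a protease that cuts procollagen and latent TGF-beta binding proteins, was at 39.3 and 51.8 FPKM. The latent TGF-beta binding proteins Ltbp2, Ltbp3 and Ltbp4 had log2 ratios of 0.23, 0.27 and 0.24. Furin was the 1 measured gene below 0, at 34.1 FPKM with the empty vector and 33.3 FPKM with Cacnb4. Of the listed activators, Itgb6 and Itgb8 lay below 1 FPKM in both libraries, and Thbs1 and Itgav had no row.

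Among measured receptor modifiers, Bambi had the largest difference. Bambi, a decoy receptor without a kinase that damps signals of the TGF-beta family, was at 26.0 FPKM with the empty vector and 45.1 FPKM with Cacnb4, 1.74 times higher. The authors' deposited table gives it a p-value of 0.0160 and a q-value of 0.489. Tgfbr3, the co-receptor betaglycan that presents Tgfb2 to its receptors, was at 3.13 and 2.86 FPKM. Vasn, a ligand-binding membrane protein, had a log2 ratio of 0.26, Tgfbrap1, a protein that associates with TGF-beta receptors, one of -0.24 and Fkbp1a, which keeps the type I receptor inactive, one of -0.05. In all 2 of 5 measured genes were above 0, with a median of -0.05.

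Smads, co-repressors and regulators of Smads were evenly spread, with 8 of 14 measured genes above 0 and a median log2 ratio of 0.04. The farthest from 0 was Tgif2, a co-repressor listed under an older name, at 1.98 FPKM with the empty vector and 2.82 FPKM with Cacnb4. Ldlrad4, a membrane inhibitor of Smad activation, was at 4.99 and 6.19 FPKM. Smurf2, a ubiquitin ligase that Smad7 brings to the receptor, had a log2 ratio of 0.22. The ligase Wwp1 had one of -0.23 and the deubiquitinase Usp15 one of -0.21. Of the 4 measured genes of the TAK1 branch, a kinase route beside the Smads, Tab1 had the largest log2 ratio, 0.24, and Map3k7, Tab2 and Traf6 lay at -0.09, 0.06 and -0.05.

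In the activin arm no other measured gene of the list differed by as much as Inhba. Of these 7 measured genes 3 were above 0, with log2 ratios from -0.21 to 0.17. Fst, the secreted follistatin that binds and blocks activin, was at 282 FPKM with the empty vector and 246 FPKM with Cacnb4. Fst thus stood 20.2 times above Inhba with the empty vector and 9.23 times above it with Cacnb4. The Inhba level here is the sum of both transcripts, of which the second held 25.2% and 50.6%. The activin receptors Acvr2a and Acvr1b had log2 ratios of 0.17 and -0.11. Gdf11, a related ligand, had one of -0.21, and Inha, the inhibin alpha chain, one of 0.11.

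The BMP arm, which signals through Smad1, Smad5 and Smad9, held the listed pathway gene with the highest log2 ratio. Nog, the BMP antagonist noggin, was at 1.89 FPKM with the empty vector and 4.40 FPKM with Cacnb4, 2.33 times higher and 0.90 on the log2 ratio. Its p-value in the authors' deposited table is 0.0135, with a q-value of 0.467. Chrd, the antagonist chordin, was at 1.87 and 3.30 FPKM, and Bmp2, a ligand, at 0.753 and 1.50 FPKM. Bmpr1b, a type I BMP receptor, was at 2.35 and 3.46 FPKM. Id2, a target of BMP signals that inhibits basic helix-loop-helix factors, was at 227 and 166 FPKM, the lowest log2 ratio of the list at -0.45. Over the list, 10 of 15 measured genes were above 0 and the median was 0.09.

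Listed targets of TGF-beta in mesenchymal cells were mostly higher by less than 2-fold. Of 29 measured targets 23 were above 0, against 44.6% of all measured genes, and the median log2 ratio was 0.23. Of the 29, 0 were 2-fold different, and the 6 below 0 went down to -0.17, for Junb. The 5 with the largest absolute log2 ratio, all of them higher, follow. Fn1 (fibronectin, which joins matrix and cells) had a log2 ratio of 0.76, Ctgf (a matrix-associated growth factor) one of 0.75 and Col1a1 (collagen I) one of 0.64. Cdkn2b, the inhibitor p15 of cell cycle kinases, was at 22.4 FPKM with the empty vector and 36.7 FPKM with Cacnb4, and the authors' deposited table gives it a p-value of 0.0199 and a q-value of 0.541. Loxl2, which crosslinks collagen, was at 105 and 157 FPKM. Over all listed pathway genes counted once, 53 of 80 measured were above 0. The authors' deposited table marks 0 of the listed genes, against 0.696% of all its transcripts. With 1 FPKM added, 0 of the 80 were 2-fold different, against 1.94% higher and 1.08% lower among all measured genes. With 0.1 FPKM added 1 of the 80 was, Nog.

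**Figure D5:**
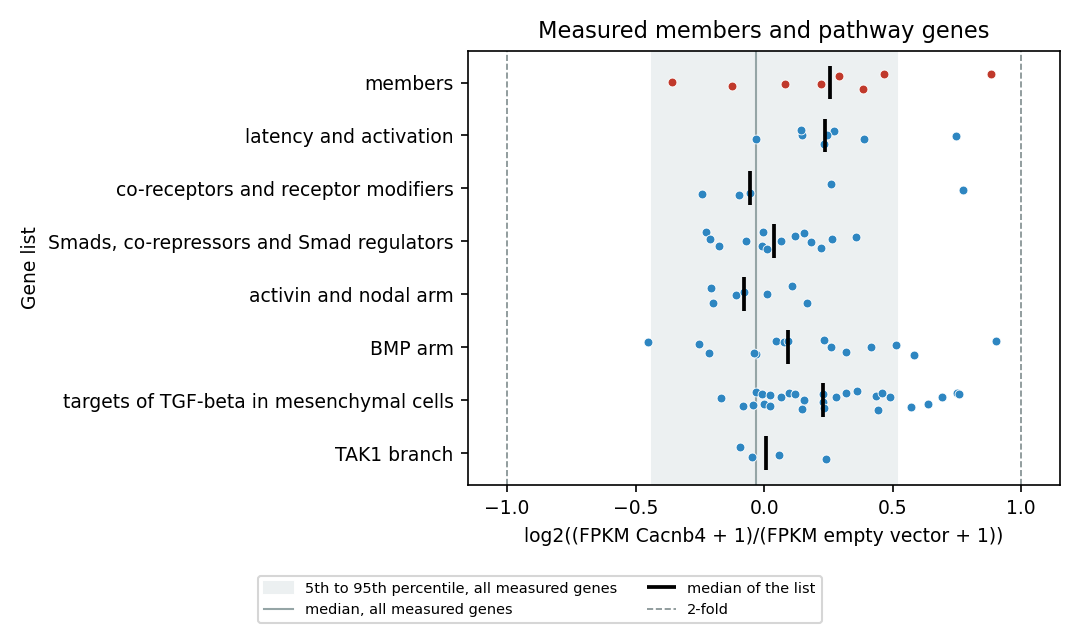
Log2 ratio of each measured member (red) and of each measured gene of the 7 pathway lists (blue), 1 point per gene, with a black bar at each list's median. The shaded band runs from -0.44 to 0.52, the middle 90% of all measured genes, the grey line is their median of -0.03 and the dashed lines mark 2-fold. All points lie inside the dashed lines, and the medians of the members, of latency and of targets are 0.26, 0.24 and 0.23.

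Levels of marker genes from the 6 marker lists are given here, and they were not a test of the heart label. Of 8 muscle markers, 7 were measured, with Myod1, a factor of skeletal muscle lineage, at 89.8 FPKM with the empty vector and 101 FPKM with Cacnb4. The list's summed level was 598 and 695 FPKM, and 5 of the 7 measured markers were above 0 on the log2 ratio. Higher with Cacnb4 were also Myog at 51.3 and 71.9 FPKM, Tnnt2 at 214 and 309 FPKM, Myh3 at 1.86 and 4.57 FPKM and Tnnt3 at 9.04 and 11.4 FPKM. Lower with Cacnb4 were Des at 7.55 and 6.02 FPKM and Actc1 at 225 and 192 FPKM. The authors' deposited table marks Myh3, with a q-value of 0.0310, and a transcript of Tnnt3, with one of 0.0180. Tnnt3 has 14 transcripts, and the direction of the marked one is not given here. Of all transcripts, 0.696% carry the mark. Myf5, another skeletal muscle factor, was under 0.02 FPKM in both libraries. Of 6 fibroblast markers only Col1a1 and Thy1 were measured, and the list's sum of 1560 and 2345 FPKM was mostly Col1a1, which is also in the list of targets. Thy1 was lower with Cacnb4, at 108 and 89.7 FPKM, and Pdgfra, Dcn, Lum and Tcf21 were below 1 FPKM in both libraries. Of the markers of leukocytes (6), endothelium (5 with a row) and platelets (3 with a row), 0 were measured. Their sums were 1.20 and 1.98 FPKM, 0.332 and 0.535 FPKM, and 0.0178 and 0.000228 FPKM, in that order. Of 5 epithelial markers 2 were measured, with a sum of 52.4 and 49.0 FPKM that was mostly Krt8. The part of muscle and fibroblast genes in the ligands' differences was not tested, and fewer cells of a kind cannot be told apart from less RNA per cell.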

How the data were processed

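RNA from H9c2 cells was sequenced in 2 libraries, 1 with an empty vector and 1 with a Cacnb4 plasmid, and groups were taken from the sample titles. Per the labels' protocols, RNA was purified on columns and made into Illumina libraries. The submitters' processing notes name TopHat 1.4.1 and build rn4. The program that estimated the levels was not given in the sources used here. Read counts per library were deposited, after adaptor removal and loss of reads under 10 bases, per the file's footnote. The authors' table of 32767 transcripts has values read here as FPKM from their layout, since its header names no unit. Each transcript also has the authors' p-value and q-value, and their mark stands on all transcripts with q below 0.05 and no others.

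FPKM was summed per gene name, leaving out 13533 unnamed transcripts and 17 whose names read as dates. Genes reaching 1 FPKM in either library were called measured, and they were counted at 2-fold or more on log2(FPKM + 1). Named were all members, and in each of 7 pathway lists genes at 2-fold or more and up to 5 with the largest absolute log2 ratio. Other genes named were chosen after their values were seen. Members, pathway lists, 6 marker lists and motifs were chosen with earlier results of these data known. 10 listed pathway genes had no row and were not analysed here. The code behind the 2-fold count was tested on simulated data with changes larger than 2-fold. Those data held no set changes near 2-fold and no genes of low level. Other settings tried were 0.1 or 5 FPKM as the pseudocount, a minimum of 5 FPKM or none, a gene's highest transcript by mean, a rescaling to a median ratio of 1, and other thresholds on the authors' p and q. Sequences came from RefSeq tables on GRCr8, while positions of genes are those of the table on rn4. Python 3.11.15, numpy 2.4.6, pandas 2.3.3 and matplotlib 3.10.9 were used.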

Additional observations from a re-analysis of the deposited data

How the results depend on the processing

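No paired analysis was possible because each group held 1 library, and no library could be left out. Under the 6 alternative settings no member reached 2-fold and no member's log2 ratio changed sign. Tgfb1 ran from -0.36 to -0.32, Tgfb2 from 0.39 to 0.50, Tgfb3 from 0.37 to 0.42, Smad3 from 0.23 to 0.32, Smad7 from 0.16 to 0.26, Tgfbr2 from 0.04 to 0.12 and Tgfbr1 from -0.15 to -0.07. Inhba ran from 0.31 to 0.93, and the lowest value is that of its first transcript alone. With a minimum of 5 FPKM Tgfbr1 was no longer measured, since it lay below that in both libraries. With a pseudocount of 0.1 FPKM the count of listed pathway genes at least 2-fold higher was 1, Nog, in place of 0, since the smaller addition shrinks low genes less. Counts over all measured genes stayed within 1.5 times. At an unadjusted p below 0.05 and at q below 0.01 the authors' deposited table still held 0 member transcripts. The pseudocount, the rescaling and the choice of transcript do not enter the authors' marks. The values carry no read counts, so what depth limits per gene is unknown.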

Other observations

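Between Cldn11 and Prkci, the neighbours that flank Skil in RefSeq's gene order on GRCr8, the table lists 5 transcripts without a gene name on rn4 chromosome 2. The same interval on GRCr8 also holds LOC102547718, a non-coding RNA gene, so none of them is given a gene here. The 5 had ratios of Cacnb4 to empty vector from 0.952 to 1.63. The longest, from 116665572 to 116669743, was at 17.4 FPKM with the empty vector and 22.3 FPKM with Cacnb4. The one at the highest level, from 116671128 to 116671365, was at 121 and 197 FPKM. Its p-value in the authors' deposited table is 0.0724, with a q-value of 0.743. The last, from 116690227 to 116692108, was at 23.4 and 30.1 FPKM. This interval was chosen after the values were seen.

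Within 20 kb of the members' spans the table lists 6 other transcripts without a gene name, and 2 of them have a p-value below 0.05 in the authors' deposited table, where 10.1% of all transcripts without a gene name do. Both have a q-value above 0.05. One of 135 bases lies 1469 bases from the lower end of Smad7, on rn4 chromosome 18 from 72293199 to 72293333. It was at 293 FPKM with the empty vector and 116 FPKM with Cacnb4, 2.51 times lower, whereas Smad7 itself was 1.19 times higher. The authors' deposited table gives it a p-value of 0.0404 and a q-value of 0.622. One of 211 bases lies 3021 bases from the lower end of Tgfb3, on rn4 chromosome 6 from 110170207 to 110170417. It was at 4.70 and 28.4 FPKM, 6.03 times higher, against 1.31 times for Tgfb3, with a p-value of 0.0210 and a q-value of 0.544 in the authors' deposited table. A neighbour of 411 bases on the same side of Tgfb3 was at 6.88 and 6.76 FPKM. Near Tgfb1, a transcript of 172 bases was at 46.2 and 21.5 FPKM, and both of those near Tgfbr2 were lower with Cacnb4, at ratios of 0.672 and 0.704. No strand or read count is given for any of them, so the number of reads behind the ratios of these short transcripts is unknown. Their relation to the members was not tested.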
